A study of Mus musculus with 6 samples.

Results

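The cytokines interleukin-6, interleukin-11, leukemia inhibitory factor and oncostatin M, their receptor chains and the feedback inhibitor Socs3 were compared between chemically induced skin tumors and healthy skin of the mouse. The 10 genes were chosen by name, as every non-control probe of the array that carries the gene symbol Il6, Il11, Lif, Osm, Osmr, Il6ra, Il6st, Lifr, Il11ra1 or Socs3. They had 12 probes on 13 spots, out of 55681 probes, and all 10 were among the 24756 genes and other named features that were tested. The samples were 3 biopsies of healthy skin and 3 tumors of female FVB/N mice, an inbred albino strain used for skin carcinogenesis. The tumors, labelled cSCC (cutaneous squamous cell carcinoma), arose after a topical dose of the mutagen DMBA, then PMA (also called TPA), a phorbol ester that promotes tumor growth, given 2 times a week for 6 weeks, DMBA again in week 8, and PMA for 14 more weeks. Healthy skin received the solvent acetone. Samples were taken throughout the protocol, so their age and time on treatment can differ, and no sample is treated skin without a tumor, so the effect of the chemicals and that of the tumor cannot be told apart. Nothing in the labels tells if each biopsy is from its own mouse, and p-values therefore cover only the spread between these 6 samples, which may be technical.

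Cytokines of this family signal through gp130, the shared receptor chain encoded by Il6st. Interleukin-6 and interleukin-11 first bind a chain of their own, Il6ra or Il11ra1, which has no signalling function by itself, whereas leukemia inhibitory factor joins gp130 to Lifr and mouse oncostatin M joins it mainly to Osmr. The assembled receptor activates Janus kinases and the transcription factor STAT3, and Socs3, itself a STAT3 target, binds gp130 and shuts the signal down. In skin these cytokines take part in wound healing, inflammation and the growth of keratinocytes.

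RNA from each biopsy (0.2 µg, with an RNA integrity number of 9) was labelled with the dye Cy3 and hybridised to its own array. All 6 arrays lay on 1 slide. Values are given as log2 signal relative to the 75th percentile of the same array, so that 0 is the level of a fairly bright probe and negative values are dimmer. The 75th percentile itself was a signal of 525, 654 and 242 in healthy skin 1 to 3, and 648, 848 and 897 in tumor 1 to 3. Between 48.7% and 65.4% of spots were well above background, lowest on the array of tumor 1, whose median background signal was 85 where the other arrays had 23 to 26. Healthy skin 3 and the 3 tumors shared a row of the slide, and healthy skin 1 and 2 lay in the other row. The tissue labels were checked with keratinocyte markers. All 6 basal keratinocyte markers were well above background on every array and none passed the test between groups, while of 5 suprabasal markers 3 were lower in tumors, with a summed linear signal of 972 to 1253 times the array's 75th percentile in healthy skin and 66.0 to 249 in tumors.

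The array measures each gene through probes of 60 bases, and a call holds for the stretch of transcript that the probe covers. The first 30 bases of the 8 probes of the 6 genes that changed are printed here 5′ to 3′, on the strand of the transcript, with positions from the array's own annotation (mm9); Lifr has 3 probes, at different places of its transcripts. Whether a probe lies in a coding exon or in an untranslated region was not determined here. Nor was it determined if the Lifr probe labelled for transcript variant 2 measures that variant alone.
Il6, chr5:30346367-30346396, + strand: ctgttacctagccagatggtttcttggaat
Il11, chr7:4724877-4724906, - strand: ctggggtctctatgaaatctgttcacagtg
Il6ra, chr3:89674084-89674113, - strand: aggaccaagtgcagtaacggtagcccaaac
Lifr, main probe, chr15:7147319-7147348, + strand: catagatgatgtaaatagcctaagacactg
Lifr, probe for transcript variant 2, chr15:7135072-7135101, + strand: taaaaacttggaaatgtatccaggcctaac
Lifr, dimmest probe, chr15:7141150-7141179, + strand: agaacaaaccaaatgactaaccaggtcacc
Il11ra1, chr4:41716285-41716314, + strand: tcttgggcttggcccttctgggaagtgtga
Socs3, chr11:117827510-117827539, - strand: ccttcgaggctgtctgaagatgcttgaaaa

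Among the genes that passed the test, the cytokines and Socs3 were higher in tumors and the receptor chains were lower. In the main processing, set against its detection limit, Il6 was at least 6.95-fold higher in tumors. With normexp background correction its log2 fold change was 1.20, which is below that bound. Il11 was 3.29-fold higher and the feedback gene Socs3 2.63-fold higher. The receptor chains Lifr, Il6ra and Il11ra1 were 8.82-fold, 5.93-fold and 5.0-fold lower. Of the 10 genes, 3 were higher in tumors at an adjusted p under 0.05, where 10.3% of all features tested were higher, and 3 were lower, where 15.6% of all features were lower; in either direction 25.9% of all features passed. The other 4, Lif, Osm, Osmr and Il6st, did not pass. In 7 of the 10 genes the 3 tumors and the 3 healthy samples did not overlap, against 49.7% of all features (20.7% with tumors above healthy skin and 29.0% with tumors below). The median log2 fold change was -0.61 over the 10 genes and -0.16 over all features. Adjusted p-values come from limma with the Benjamini-Hochberg method over all features, and fold changes are tumor over healthy skin with 3 samples a group.

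**Figure D1:**
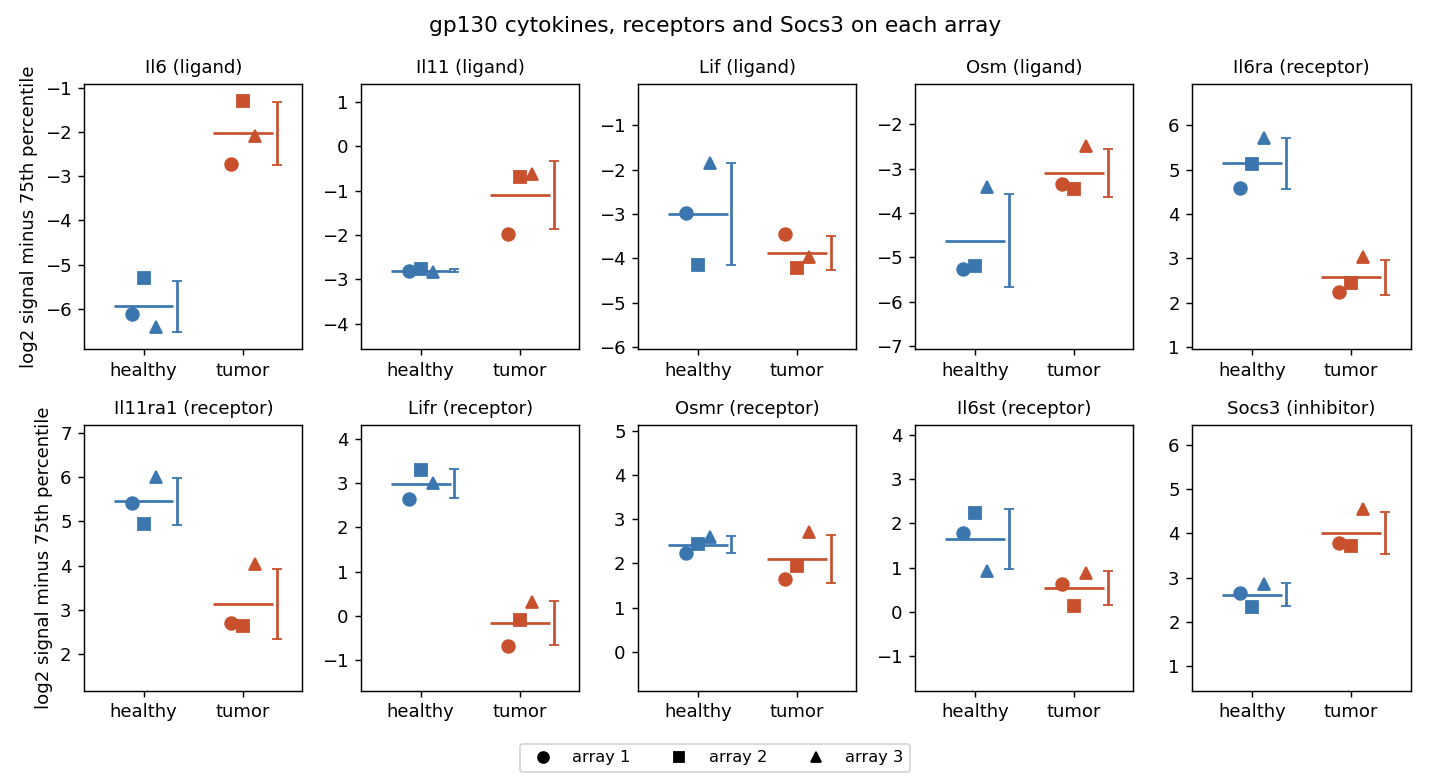
Log2 signal relative to the array's 75th percentile (vertical axis) of each of the 10 genes on each of the 6 arrays, 1 panel per gene with its own axis range; symbols mark sample 1, 2 and 3 of each group, lines the group means and bars 1 SD to each side. Il6, Il11 and Socs3 lie higher in all 3 tumors, Il6ra, Il6st, Lifr and Il11ra1 lie lower in all 3 tumors, and the groups overlap for Lif, Osm and Osmr.

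Il6 encodes interleukin-6, the founding member of the family and an inducer of the acute-phase response. Its relative log2 signal was -6.10, -5.30 and -6.41 in healthy skin 1 to 3 and -2.72, -1.31 and -2.08 in tumor 1 to 3. Every tumor lay far above every healthy sample. The probe has 2 spots, with processed signals of 2.83 to 21.3 in healthy skin and 87.2 to 347 in tumors. In healthy skin only 1 of the 6 spot readings, on healthy skin 2, was well above background, and by the rule that both spots must be, the gene was not well above background there. Its level in healthy skin is therefore a bound. Set against the detection limit of the healthy arrays (a mean of -4.83), the tumor mean was at least 6.95-fold higher, or at least 2.80 on the log2 scale. That bound holds within the main processing only. The log2 fold change was below it with normexp background correction (1.20) and in the deposited table (2.13). The measured means were -5.94 ± 0.57 and -2.04 ± 0.71 (SD, n = 3 each), and the fit gave an adjusted p of 0.00169 in limma. Il6 passed in the same direction under each of the 20 other settings that gave it a value, with log2 fold changes from 1.20 (normexp background correction) to 4.79 (spike-in scaling).

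Il11 encodes interleukin-11, a cytokine linked to fibroblasts and to epithelial tumors. It stood at -2.82, -2.77 and -2.83 in healthy skin and at -1.97, -0.68 and -0.62 in the tumors. The healthy samples were nearly alike, and the tumors lay above them, with tumor 1 nearest to healthy skin. The difference was 1.72 ± 0.41 on the log2 scale (SE; 95% interval 0.77 to 2.67), with an adjusted p of 0.0215 in limma. The call was lost in 8 of 21 other settings: without any of the 3 healthy samples (adjusted p 0.0559, 0.0585 and 0.0540 without healthy skin 1, 2 and 3), without tumor 2 (0.0720) or tumor 3 (0.0621), without the detection filter (0.0527), with slide row as a block (0.0716), and within slide row 2 (0.127). The last pair of settings both set healthy skin 3 alone against the 3 tumors.

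Osm encodes oncostatin M, made mostly by myeloid and T cells. Its values were -5.27, -5.20 and -3.42 in healthy skin and -3.35, -3.47 and -2.48 in tumors. Healthy skin 3 lay above tumor 2, so the groups overlapped, and only 1 of the 3 healthy samples was well above background. The log2 difference of 1.53 ± 0.56 did not pass, with a limma adjusted p of 0.0808. It passed in 7 of 20 other settings: median scaling (0.0395), spike-in scaling (0.0258), the deposited table (0.0359), array weights (0.00481), the replicate number as a block (0.0311), without healthy skin 3 (2.14, 0.0171), and without healthy skin 3 and tumor 1 together (0.0302). Within slide row 2, where healthy skin 3 is the only control, the difference was 0.32 (0.676).

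Lif encodes leukemia inhibitory factor, which can be secreted by keratinocytes and fibroblasts. It had values of -2.97, -4.16 and -1.86 in healthy skin and -3.46, -4.21 and -3.98 in tumors, which overlapped. The spread was wide among the healthy samples, with an SD of 1.15 against 0.39 among tumors. The log2 difference of -0.89 ± 0.57 did not pass in limma (adjusted p 0.276; 95% interval -2.22 to 0.44). With slide row as a block, which sets healthy skin 3 alone against the 3 tumors, the difference was -2.02. Healthy skin 3 had the highest value of the healthy samples, and without it the difference was -0.32 (limma adjusted p 0.629). With spike-in scaling the difference was 0.0018.

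Among the receptor chains, Lifr, which binds leukemia inhibitory factor and pairs with gp130, had on its main probe the greatest drop of the 10 genes; with its 3 probes averaged it fell by 2.42, less than Il6ra. On its main probe the 3 healthy samples stood at 2.65, 3.30 and 3.0 and the tumors at -0.68, -0.10 and 0.31. The difference was -3.14 ± 0.35 on the log2 scale (95% interval -3.96 to -2.32), with an adjusted p of 0.00148 in limma. The lowest healthy sample was far above the highest tumor.

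The other Lifr probes went the same way. The probe for transcript variant 2 read -0.59, 0.38 and -0.69 in healthy skin and -3.12, -2.72 and -2.13 in tumors, a log2 difference of -2.35 ± 0.41 (adjusted p 0.00737 in the limma fit of every probe). The dimmest probe read -2.18, -1.99 and -2.89 in healthy skin and -4.52, -3.87 and -4.0 in tumors, a difference of -1.78 ± 0.35 (adjusted p 0.0115), with 2 of the 3 tumors well above background. On all 3 probes each tumor lay below each healthy sample.

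Il6ra, the ligand-binding chain for interleukin-6, stood at 4.58, 5.13 and 5.71 in healthy skin and at 2.25, 2.45 and 3.02 in tumors. The groups were well apart. The log2 difference was -2.57 ± 0.38 (95% interval -3.46 to -1.67) with a limma adjusted p of 0.00417. The interleukin-6 ligand and its own receptor chain thus changed in opposite directions in the same 3 tumors.

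Il11ra1, the chain for interleukin-11, gave 5.41, 4.95 and 6.01 in healthy skin and 2.71, 2.65 and 4.04 in tumors. Tumor 3 was the highest of the tumors and still below each healthy sample. The log2 difference was -2.32 ± 0.47 (95% interval -3.42 to -1.22; limma adjusted p 0.0125). The mouse carries near-identical copies of this gene, and whether the probe tells them apart was not tested, so the value is uncertain as to which copy it measures. Il11ra1 no longer passed without healthy skin 3 and tumor 1 together, at -1.83 (adjusted p 0.0805).

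The calls of all 3 receptor chains rest on the scaling of the arrays. With scaling to the spike-in controls none of them passed, at -2.25 for Lifr (adjusted p 0.0594), -1.68 for Il6ra (0.116) and -1.43 for Il11ra1 (0.189). That scaling moved the median of all features from -0.16 to 0.73, and the 3 genes still lay below it. Under it 70.8% of called features were higher in tumors, and under median scaling 62.9% were, against 39.8% in the main scaling. In every other single setting tried Lifr and Il6ra passed.

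Il6st encodes gp130 itself, the chain shared by the whole family. Its values were 1.78, 2.24 and 0.92 in healthy skin and 0.63, 0.13 and 0.87 in tumors. The tumors lay below the healthy samples, with healthy skin 3 close to tumor 3. The log2 difference of -1.10 ± 0.41 (95% interval -2.06 to -0.15) did not pass after adjustment, with an adjusted p of 0.0845 in limma. It was -1.47 without healthy skin 3 (0.0306), and it ranged from -1.60 to -0.22 over the 21 other settings.

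Osmr, the chain that oncostatin M uses and that is abundant in keratinocytes and fibroblasts, read 2.23, 2.43 and 2.61 in healthy skin and 1.64, 1.95 and 2.70 in tumors. The groups overlapped, with tumor 3 the highest of the 6 samples. The log2 difference was -0.33 ± 0.35 (95% interval -1.13 to 0.48; limma adjusted p 0.510). Its sign turned with the scaling, to 0.04 when arrays were aligned at their median and to 0.56 when they were aligned at the spike-in controls.

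**Figure D2:**
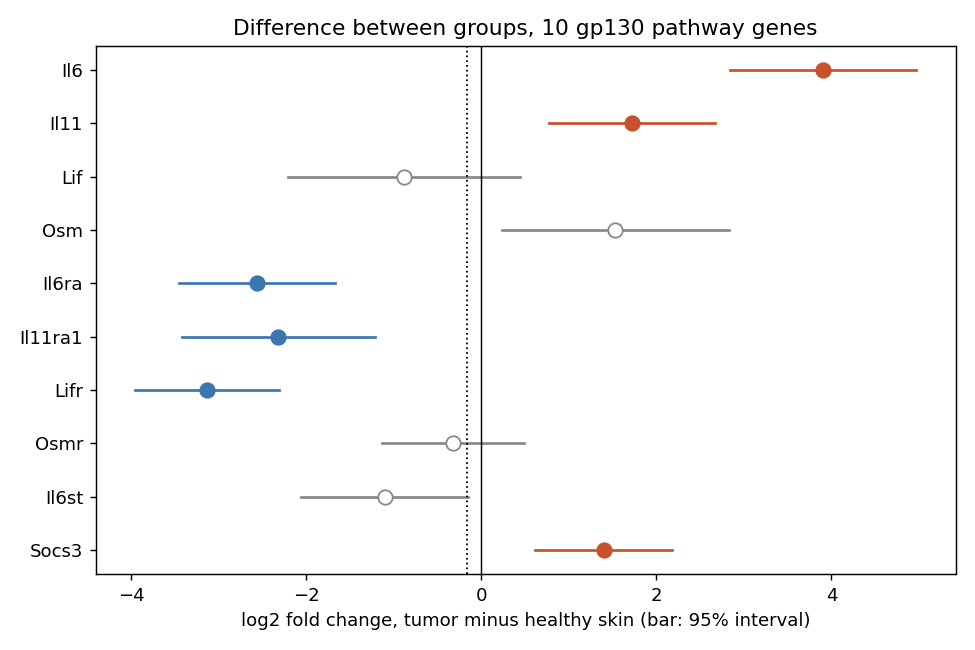
Log2 fold change of tumor over healthy skin (horizontal axis) of the 10 genes, with bars for the 95% confidence interval of the limma fit, filled points at an adjusted p under 0.05 and a dotted line at the median of all features (-0.16). The intervals of Il6, Il11, Osm and Socs3 lie above 0, those of Il6ra, Il6st, Lifr and Il11ra1 below 0, and those of Lif and Osmr cross 0; Osm and Il6st did not pass after adjustment.

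Lifr and Osmr are related chains that both pair with gp130, and they differed in how far they moved. The fold change of Osmr exceeded that of Lifr by 2.82 on the log2 scale, a difference that a shift of a whole array leaves as it is; quantile normalization, which is no such shift, gave 2.75. The exact two-sided permutation test gave p = 0.1, which is the smallest value 3 against 3 samples allow. Over the other settings the difference ranged from 2.10, with probes of a gene averaged, to 2.92. Apart from that average, each setting used the main Lifr probe. The other Lifr probes fell less (-2.35 and -1.78), so the difference would be smaller with either of them. For the pair of ligand-binding chains, Il6ra minus Il11ra1, the difference was -0.25 (exact permutation p = 0.5), with a range from -0.51 to 0.0056.

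Socs3, the feedback inhibitor that binds gp130, was the only intracellular gene of the 10. It stood at 2.66, 2.34 and 2.86 in healthy skin and at 3.78, 3.71 and 4.56 in tumors, with no overlap. The log2 difference was 1.40 ± 0.33 (95% interval 0.61 to 2.18; limma adjusted p 0.0225). It kept its direction in all 21 other settings and lost the call in 7 of them: quantile normalization (adjusted p 0.0513), no detection filter (0.0583), slide row as a block (0.0900), slide row 2 alone (0.152), and without healthy skin 1 (0.0590), healthy skin 2 (0.0775) or tumor 3 (0.0593).

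**Figure D3:**
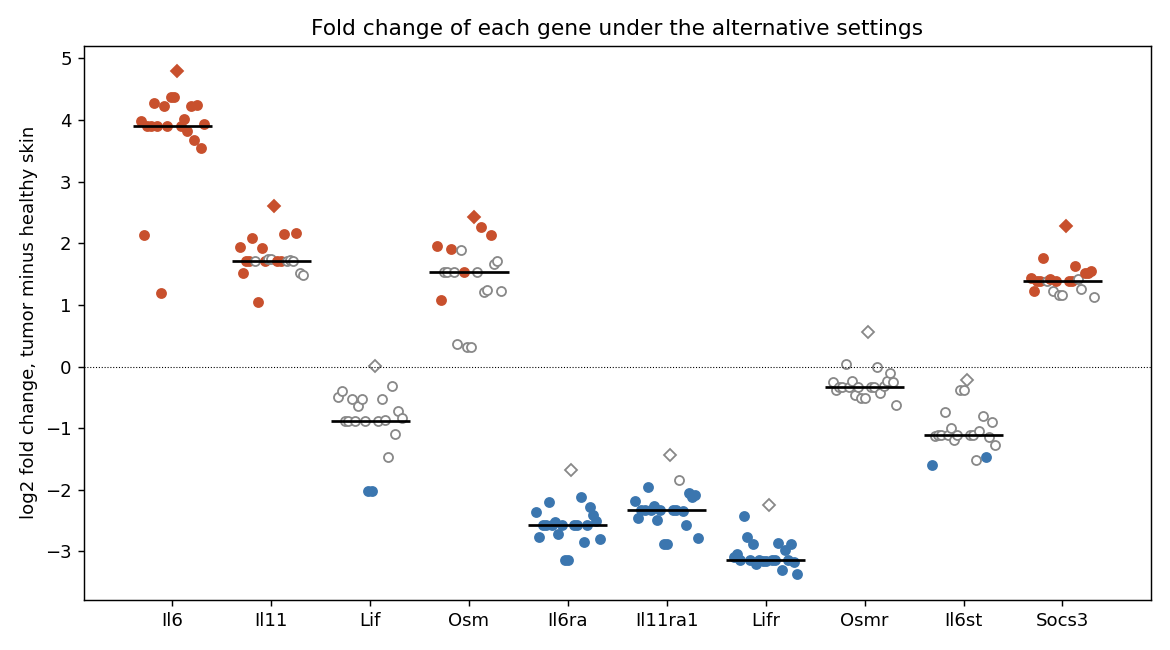
Log2 fold change of tumor over healthy skin (vertical axis) of each of the 10 genes under each alternative setting (points, filled where the adjusted p was under 0.05, diamonds for spike-in scaling) and under the main setting (lines). Il6 stays above 0 and passes under each setting that gave it a value (1.20 to 4.79), Lifr and Il6ra pass under all but spike-in scaling, and Lif and Osmr have values on both sides of 0.

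The start regions of these genes were searched for letters that STAT factors, AP-1 and NF-kappaB are known to bind. PMA, the phorbol ester used here, is a classical inducer of AP-1, and NF-kappaB is a known regulator of Il6. The windows ran from 250 bases before to 50 bases after the annotated start (RefSeq, GRCm38.p6), and 12 windows for 9 of the 10 genes were found; Osm had none. On both strands the AP-1 letters TGANTCA were in 4 of the 12 windows, those of Il6, Il11, Lif and Osmr, against 7.81% of all 32851 windows. The NF-kappaB letters (GGGA, any base, TTTCC) were in the window of Il6 and in 0.411% of all windows. The STAT letters TTCNNNGAA were in the window of Socs3 and in 8.30% of all windows, and their stricter form TTCCNGGAA, which is contained in the former, was in 0 of the 12 and in 1.15% of all windows. These matches are descriptions of the letters, and binding was not measured. The AP-1 letters were thus found in Il6 and Il11, which were higher in tumors, and in Lif and Osmr, which did not pass. A stretch around a match is printed for each of the 3 genes that were higher in tumors, 5′ to 3′ on the strand of the gene, with the match in capitals.
Il6, NF-kappaB match, chr5:30013050-30013099, + strand: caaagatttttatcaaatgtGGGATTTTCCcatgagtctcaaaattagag
Il11, AP-1 match, chr7:4778213-4778259, - strand: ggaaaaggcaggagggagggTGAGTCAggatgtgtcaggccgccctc
Socs3, STAT match, chr11:117969492-117969540, - strand: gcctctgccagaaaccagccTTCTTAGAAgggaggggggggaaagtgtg

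The other cytokines of the family did not move as one. Of 7 measured, 2 were higher and 1 was lower in tumors. Clcf1, a cytokine that signals through gp130, Lifr and the ciliary neurotrophic factor receptor, was 10.2-fold higher, with -2.83, -3.63 and -3.70 in healthy skin against 0.41, -0.59 and 0.06 in tumors (log2 difference 3.35 ± 0.39, limma adjusted p 0.00162). It passed in all 21 other settings. Ebi3, a subunit of interleukin-27, was 2.95-fold higher (1.56 ± 0.34, adjusted p 0.0168), a call lost in slide row 2 alone (0.0894), without healthy skin 2 (0.0548), and without healthy skin 3 and tumor 1 together (0.0741). Ctf1, cardiotrophin-1, another ligand of Lifr, was 3.67-fold lower (-1.87 ± 0.28, adjusted p 0.00407), and did not pass with spike-in scaling, at -0.99 (0.342). Il27, Cntf and Ctf2 were among those that did not pass, and Il31 did not pass the detection filter.

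Of the 3 other receptor chains, Il31ra, which pairs with Osmr to bind the itch cytokine interleukin-31, was lower in tumors. It read 0.39, 0.57 and -0.56 in healthy skin and -5.84, -4.50 and -4.65 in tumors, with 2 of the 3 tumors well above background. The log2 difference was -5.13 ± 0.47, or 35.0-fold lower (limma adjusted p 0.000824), and it passed in each of the 20 settings that gave a value. Its size varied with the processing, as the tumor signals were dim. It was -3.32 with normexp background correction and -3.74 in the deposited table. Its partner Osmr, as given above, did not pass. Cntfr, the ciliary neurotrophic factor receptor chain, had a log2 difference of -1.55 (adjusted p 0.163) and Il27ra, the interleukin-27 receptor chain, one of -0.06 (0.956).

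Of 10 Janus kinases, STATs and adaptors 2 passed, and of 12 JAK-STAT feedback inhibitors other than Socs3 2 passed, shares near the 25.9% of all features. Stat5a, a transcription factor of the same family as STAT3, was lower in tumors (-1.83 ± 0.44, limma adjusted p 0.0236), and the call was lost in 5 of 21 other settings, among them median scaling (adjusted p 0.0502), spike-in scaling (0.385), and leaving out healthy skin 3 (0.0552) or tumor 1 (0.0601). Among the feedback inhibitors, Socs6 had a log2 difference of 1.45 with an adjusted p of 0.0498. The call was lost without any 1 of the 6 arrays (adjusted p 0.0507 to 0.137), and averaging its probes gave -0.0291. Cish was lower (-1.65, adjusted p 0.0283), and lost the call in 5 of 21 settings, among them median scaling (0.0519), spike-in scaling (0.438), and leaving out tumor 2 (0.0896) or tumor 3 (0.0587). Adam10 and Adam17 are proteases that can shed receptor chains such as Il6ra from the cell surface. Neither passed in the main limma fit (Adam10 0.87, adjusted p 0.0655; Adam17 -0.20, adjusted p 0.668). Adam10 passed as higher in tumors in 7 of 21 other settings, and Adam17 passed in 0.

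Of 22 measured genes known to respond to STAT3, 11 were higher in tumors and 0 lower in limma, beside 10.3% higher and 15.6% lower of all features, and the median of the log2 fold changes was 1.70. The list was written with earlier results of these samples in view and is not independent evidence of its direction, and many of its genes respond to other pathways too. Saa3, an acute-phase protein, rose most, from -2.36, -3.36 and -6.10 in healthy skin to 3.77, 2.16 and 5.41 in tumors (7.72 ± 1.10, adjusted p 0.00348), with 2 of the 3 healthy samples well above background. Timp1, an inhibitor of matrix metalloproteases, was 25.3-fold higher (4.66 ± 0.61, adjusted p 0.00262). The others that rose were Junb, Lcn2, Ccnd1, Bcl3, Hif1a, Il4ra, Birc5, Vegfa and Myc, by 1.33 to 3.37 on the log2 scale. The count was 10 to 14 under the other scalings of the arrays, and 7 without tumor 1 and 7 without healthy skin 3 and tumor 1 together.

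**Figure D4:**
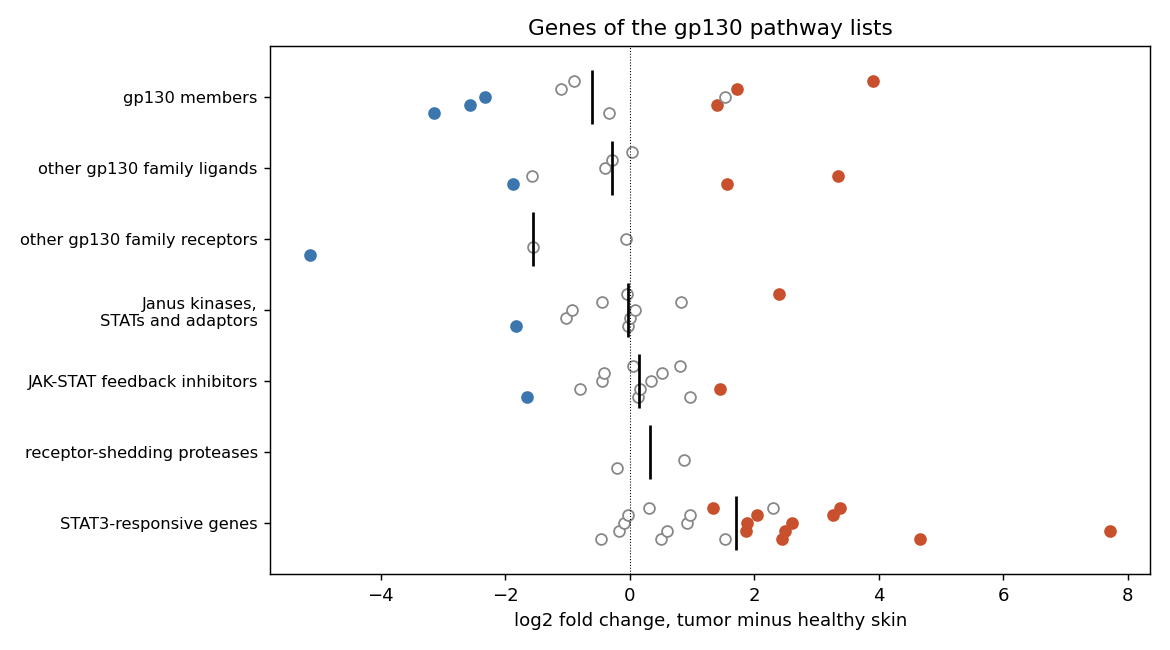
Log2 fold change of tumor over healthy skin (horizontal axis) of every measured gene in the lists of the gp130 pathway, 1 row of points per list, with filled points where the adjusted p was under 0.05 and a vertical bar at the median of each list; points are offset vertically to separate them. In the list of STAT3-responsive genes 11 of 22 points are filled and to the right of 0, and each of the other lists has at most 3 filled points on either side.

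In a biopsy, fewer cells of a type and less RNA per cell cannot be told apart. Marker signals of several cell types differed between the groups along with these genes. Skeletal muscle markers were lower in tumors for 7 of 7 genes, with a summed linear signal of 585 to 1136 times the array's 75th percentile in healthy skin and 17.9 to 45.2 in tumors. Adipocyte markers were lower for 4 of 5, from 71.6 to 338 in healthy skin to 2.94 to 27.3 in tumors. The drop of Lifr, Il6ra and Il11ra1 went together with both lists and with that of the suprabasal keratinocyte markers. The summed endothelial signal, given below, was also lower in each tumor than in each healthy sample, with 1 of 6 markers called lower. The part of any of these cells in the drop of the receptor chains was not tested.

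On the side of immune cells, 5 of 6 neutrophil markers were higher in tumors, Retnlg by 8.04 and Cxcr2 by 4.84 on the log2 scale. Retnlg was well above background in 1 of the 3 healthy samples and Cxcr2 in 2, so the size of both differences is uncertain. Some other markers called in that list were well above background in 0 of the healthy samples. The summed signal of that list was 193 to 259 in healthy skin and 141 to 159 in tumors, with most of it from Csf3r, whose difference of -0.76 did not pass (adjusted p 0.0711). Of 9 macrophage markers 2 were higher and 1 lower, with sums of 27.5 to 42.2 and 32.2 to 96.9. Of 5 T cell markers 0 were higher and 2 lower in limma, with sums of 11.5 to 31.3 and 9.22 to 12.3. Fibroblast markers had 1 higher and 1 lower of 7 (210 to 373 and 235 to 478), endothelial markers 0 higher and 1 lower of 6 (20.1 to 80.1 and 12.3 to 15.2), and mast cell markers 0 of 5 in either direction (3.98 to 69.7 and 3.83 to 8.13). The part of these cells in the rise of Il6, Il11 and Socs3 was not tested.

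Profiles over the 6 arrays were compared by the root-mean-square distance of log2 signals centred on their mean. Only features named by accession, symbol or synonym were searched, so the 8288 that keep the array's name were left out. Of those searched, the most like Il6 were Bcl2l11 (0.36), a pro-apoptotic member of the BCL2 family, Pmaip1 (0.41), another such member, and Prl2c1 (0.47). Prl2c1 belongs to a family of near-identical prolactin-like genes, which makes its identity uncertain. No healthy array had Bcl2l11 or Il6 well above background, so the order of both within healthy skin carries no information. Bcl2l11 was at least 7.57-fold higher in tumors in the main processing, or 2.92 on the log2 scale. With normexp background correction its log2 difference was 1.26, below that bound. Pmaip1 and Prl2c1, well above background on all 6 arrays, were higher by 3.62 and 4.28 on the log2 scale. For Lifr the nearest profiles were those of Mn1 (0.13), Gdf1 (0.14) and Cyp2j9 (0.16), with log2 differences of -3.16, -3.30 and -3.29.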

How the data were processed

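The deposited spot intensity files, per the file headers, come from 1-colour Agilent arrays read with Feature Extraction 10.7.3.1, which subtracts a background from each spot. In the deposited series table the log2 values have ranks that equal those of the median spot signal (Spearman correlation 1 on each array), with array medians of 6.51 to 6.52, and how it was centred is not given in the sources used here. Limma is named in the submitters' processing notes, without a version. Processed signals were put on a log2 scale here, and the 75th percentile of the 59305 non-control spots was subtracted array by array. Outlier-flagged spots were left out (180 probes), spots of a probe averaged, probes kept if 3 of 6 arrays or more were well above background (34283), and the brightest probe taken for each gene (24756 features). Features were named through RefSeq accessions of GRCm38.p6, used for names and promoter sequence (15275 by accession, 1015 by symbol, 178 by synonym, 8288 with the array's name). The test was limma 3.58.1 in R 4.3.3 (lmFit, eBayes, two-sided), Benjamini-Hochberg over all features at 0.05, and was tested on simulated data. Where no array of a group was well above background, the fold is a bound: the other group's mean was set against the dim arrays' lowest signal well above background, or the probe's own signal if higher. Such a bound holds for the main processing only. The alternatives were array scaling (quantile, median, 226 spike-in spots), normexp with an offset of 50, the deposited table, the detection filter, the handling of several probes, array weights, a variance trend, slide row or replicate number as a block, slide row 2 alone, and each array left out. Leaving out healthy skin 3 and tumor 1 together, and recounting the STAT3 list, were added after seeing the data.

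Named genes are the 10 members, up to 2 genes called in each direction with the largest change from each pathway list, all genes of lists of 3 or fewer, at most 2 markers a cell type, and the 3 nearest profiles to the higher and the lower member with the smallest adjusted p. The nearest profiles were sought only among features named by accession, symbol or synonym. The other STAT3-responsive genes named, and Csf3r, were chosen after their values were seen. The members and lists were chosen with earlier results of these data known. Some genes of the lists are not reported here by name. The number of arrays, 3 per group, limits the precision.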

Additional observations from a re-analysis of the deposited data

How the results depend on the processing

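Leaving out each array in turn gave 3840 to 5458 features called (6420 with all arrays), 1 to 3 members higher and 3 to 4 lower, and 7 to 11 STAT3-responsive genes higher; the members higher fell to 1 without healthy skin 1, healthy skin 2 or tumor 3. Over these the difference Osmr minus Lifr was 2.66 to 2.92, and Il6ra minus Il11ra1 was -0.51 to 0.0056, the last without healthy skin 2. Features called were 2685 with spike-in scaling, 3920 without the detection filter and 9857 with array weights. Members higher were 1 without that filter, with slide row as a block and in slide row 2 alone, and members lower were 0 with spike-in scaling. Without healthy skin 3 and tumor 1 together 5157 features, 4 members higher, 2 lower and 7 STAT3-responsive genes were called. Signs turned for Osmr (0.0427 with median, 0.56 with spike-in scaling), Lif (0.0018, spike-in), Socs6 (-0.0291, probes averaged) and Adam17 (0.0444 quantile, 0.17 median, 0.69 spike-in, 0.087 deposited table, and -0.44 to 0.0277 with arrays left out, the last without healthy skin 3). For Il27ra, whose main value is near 0, they turned in 10 settings: 0.20 quantile, 0.31 median, 0.83 spike-in, 0.0915 deposited table, 0.60 with slide row as a block, and 0.60 in slide row 2 alone, -0.65 to 0.61 with arrays left out (0.15, 0.0614 and 0.61 without healthy skin 1, healthy skin 2 and tumor 1), and 0.29 without healthy skin 3 and tumor 1. The cause was not tested.

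Same-numbered samples did not deviate together (correlations of 0.10, 0.13 and -0.08), and not every sample correlated best with its own number. With the replicate number as a block 5470 features, 4 members higher and 3 lower were called. Il6, Lif and Osm have no value when all 6 arrays must be well above background. With array weights Osmr minus Lifr was 2.83 and Il6ra minus Il11ra1 was -0.18, with no permutation test. Signal over background limits Il6 and Osm in healthy skin and Lif in tumors.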
